A study of Homo sapiens with 6 samples.

Results

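Among the H3K27ac peaks of THP-1 cells, 971 were wide and only little covered by the peaks of M2 macrophages that lay on or near them. They were chosen by their width and by their M2 coverage and distance, all read from these same lists, so those values are a description. The limits were a width of at least 1500 bp, outside the Y chromosome, less than 50% of the length inside M2 peaks and an M2 peak overlapping or less than 20000 bp away. They make up 971 of 31444 THP-1 peaks and 971 of the 3879 that are at least 1500 bp wide, called wide peaks here. The series compared THP-1, a leukaemia line of monocytic type labelled as human monocytes, with cells labelled M2 macrophages. Both were grown in RPMI medium with 10% fetal bovine serum, and the sources used here give neither the agents nor the starting cells behind the macrophages. For each there was 1 library of H3K27ac, 1 of the transcription factor YY1 and 1 of input DNA, and the H3K27ac peak lists are the data described here. With 1 library per cell type there is no replicate check, and no difference was tested. Shares of peaks are given with exact 95% binomial intervals, which cover counting error only.

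H3K27ac, acetylation of histone H3 on lysine 27, is laid down by the acetyltransferases p300 and CBP and marks active promoters and enhancers. Neighbouring marked nucleosomes merge into wide peaks at strong promoters and at dense enhancer regions, which in blood cells often lie at genes that define the cell's identity. Within such a peak the summit is the position with the most sequenced fragments, and the edges are where the signal no longer passes the peak caller's threshold. A wide peak in one list and a narrow peak in the other can therefore differ in extent, in height or in both. Positions are in hg19. No hg19 gene positions were used, so regions are named by coordinates, none was assigned to a gene, and marker genes of the cell types could not be checked.

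The members stood between wide peaks more fully covered in M2 and wide peaks with no M2 peak near. Of the 3879 wide THP-1 peaks, 2734 (70.5%, interval 69.0 to 71.9) were at least 50% covered by M2 peaks, and 969 of those were covered over their whole length. The 971 members are 25% (23.7 to 26.4), and the remaining 174 (4.49%) lay 20000 bp or more from any M2 peak. The same coverage and distance limits, which use the contrast that chose the members, were met by 24.0% of THP-1 peaks of any width and by 23.8% of those under 1500 bp. Little M2 coverage was thus about as frequent in wide as in narrow THP-1 peaks, and the share says nothing particular about the wide ones. By width, the share was 23.1% (21.3 to 25.03) of peaks of 1500 to 2000 bp, 26.0% (23.1 to 29.1) of those of 2000 to 2500 bp, 30.2% (25.8 to 34.9) of those of 2500 to 3000 bp, 24.4% (20.1 to 29.1) of those of 3000 to 4000 bp and 29.3% (23.7 to 35.4) of those of 4000 bp or more. Together the members spanned 2.31 Mb, 8.26% of the THP-1 covered length, and M2 peaks covered 23.1% of it. Their median width was 2051 bp (interquartile range 1733 to 2642.5) against 1975 bp in the wide peaks at least 50% covered.

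The same limits with the lists exchanged gave 6024 wide M2 peaks little covered in THP-1 cells, of 12528 wide M2 peaks. That is 48.1% (47.2 to 49.0) of wide M2 peaks, beside 25% of wide THP-1 peaks and beside 42.5% of M2 peaks of any width. The M2 list held 56420 peaks, so its wide peaks met a shorter THP-1 list.

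**Figure D1:**
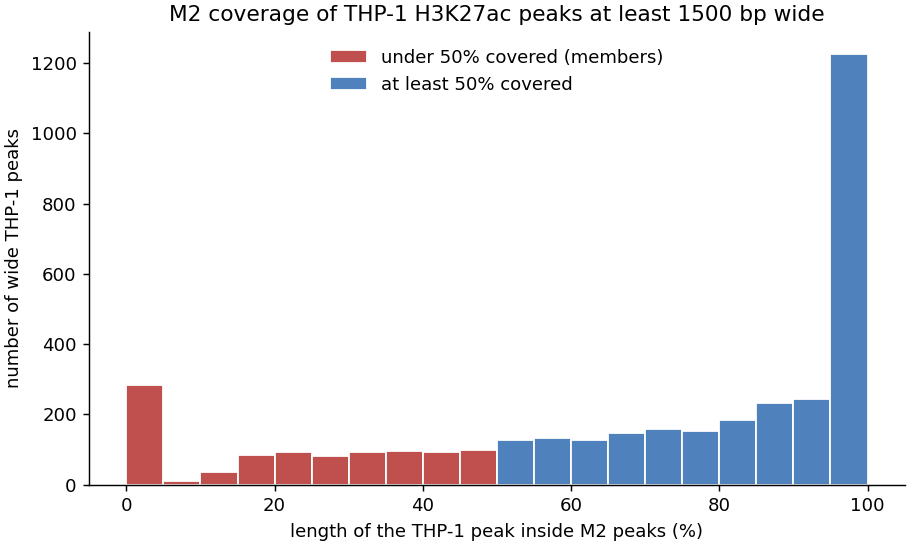
Number of wide THP-1 peaks with an M2 peak within 20000 bp (y axis) by the percentage of their length inside M2 peaks, in steps of 5 percentage points (x axis); red bars are the members, blue bars the wide peaks at least 50% covered. The lowest bar holds 285 peaks, the next only 12, and the highest 1226.

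An M2 peak overlapped 690 of the 971 members, most of them in the full lists. No M2 peak touched 281 members (28.9%, interval 26.1 to 31.9), only 16 were covered by less than 10%, 214 (22.0%) were covered by 10 to 25% and 460 (47.4%) by 25 to 50%. For comparison, 7.24% of all wide THP-1 peaks were members without M2 overlap, while 16.7% of THP-1 peaks of any width lay free of M2 overlap within the same distance. Overlaps under 10% were rare, and the narrowest M2 peak of the list was 307 bp wide. The share without overlap rests on weak M2 peaks. With only M2 peaks of a -log10 q of at least 10 it was 53.4%, a majority, and with this limit in both lists 51.8%. Where there was overlap, its median was 662.5 bp, or 31.8% of the member (interquartile range 22.1 to 40.9). The limits cut through a continuous spread. The members closest to 50% coverage were covered by 49.9%, 49.9% and 49.8%, and the first wide peaks beyond the limit by 50.2%, 50.2% and 50.3%. The narrowest 3 members were each 1500 bp wide, and the widest peaks left out for width that met the other limits were 1499, 1498 and 1495 bp. By distance, the last member lay 19891 bp from an M2 peak and the first wide peak left out 20292 bp.

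Where M2 peaks overlapped members, they mostly lay on the THP-1 summit. The summit lay inside an M2 peak in 574 of the 971 members (59.1%, interval 55.9 to 62.2). Among the 690 members with any M2 overlap it did so in 83.2% (80.2 to 85.9), although M2 peaks covered only 30.8% of the length of these 690. In the wide peaks at least 50% covered, 99.3% of summits lay in an M2 peak, and the share was 84.8% of all wide and 72.9% of all THP-1 peaks. Away from the summit the M2 cover of members fell steeply. At 200 bp to the right of the summit 43.4% of the members that reached so far were covered, at 500 bp 17.8% and at 1000 bp 10.2%, and to the left the values were 46.5%, 21.5% and 9.03%. In the wide peaks at least 50% covered, 89.1% and 82.0% were still covered at 500 and 1000 bp to the right. The coverage limit holds the members' curve down, but it does not fix where in a member the cover lies.

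**Figure D2:**
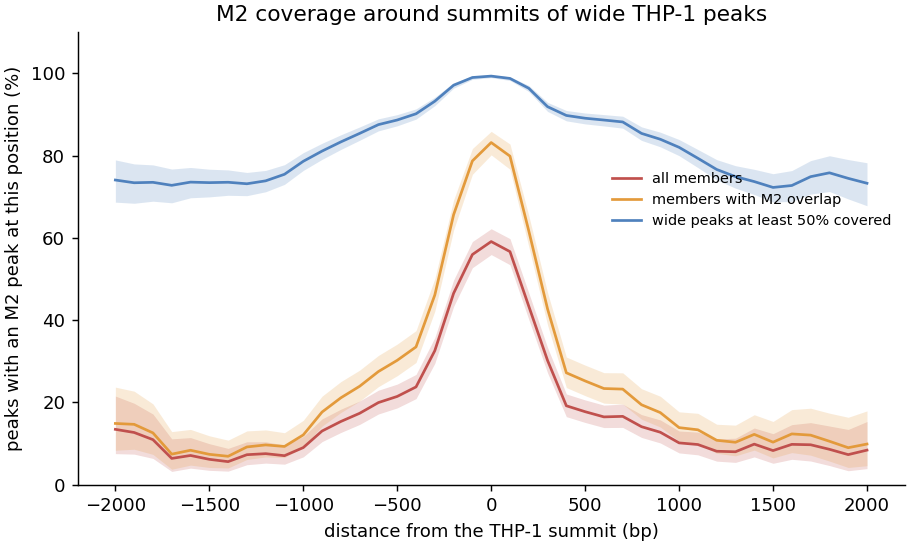
Percentage of wide THP-1 peaks in which an M2 peak lies at a given distance from the THP-1 summit (x axis, bp), counted over the peaks that extend that far; lines are all 971 members, the 690 members with M2 overlap and the 2734 wide peaks at least 50% covered, and bands are exact 95% binomial intervals. The members peak at 59.1% on the summit and fall to 17.8% at 500 bp to the right, while the covered peaks stay at 89.1% there.

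By their medians, the M2 peaks found in members were narrow and of low strength within their own list. Overlapping the 690 members were 842 M2 peaks, and 642 of them (76.2%, interval 73.2 to 79.1) lay wholly inside a member. The others reached over an edge. A single M2 peak touched 556 of the 690 members, 2 touched 119, 3 touched 13, and 1 member each had 4 and 5. The M2 peaks inside a member had a median width of 513 bp and those over an edge 1031 bp, beside 743 bp for the whole M2 list. Over all 842 the median fold enrichment, the authors' ratio of summit signal to local background, was 4.86, and the median -log10 q was 8.40. In the whole M2 list these medians were 5.42 and 13.4, and among M2 peaks on the wide peaks at least 50% covered they were 7.89 and 38.5. The rule favours narrow M2 peaks, so their width describes the choice. Strength went with width, so the low strength is not separate from that choice. The median -log10 q was 7.48 for M2 peaks inside a member. For those over an edge it was 14.6, not below that of the whole list.

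Members in which all M2 peaks lay inside and members touched only from an edge did not differ much in where the summit was. In 495 members every M2 peak lay inside, and 82.6% of their summits were in an M2 peak. In 153 members every M2 peak reached over an edge, and 85.6% of summits were in one. The remaining 42 had M2 peaks of more than 1 kind, with 34 of 42 summits in one. In 116 of the 690 overlapped members the M2 peak lay to the side of the THP-1 summit.

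The number of fragments over each summit was recovered from the deposited fold enrichment and p-value. It could be compared at 456 members, and in 437 of them M2 was the lower once each list was scaled to its lowest background. The lists hold no read counts, and over all peaks of each list the recovered median was 40 fragments in THP-1 and 40 in M2. A pair is here a THP-1 and an M2 peak that overlap each other and no further peak. There were 492 such pairs among members, and fragments could be recovered on each side for 456. Their median was 62 fragments over the THP-1 summit and 26 over the M2 summit. The lowest background recovered from the M2 list, in fragments, was 1.30 times that of THP-1. If this is the genome-wide coverage, an M2 library of the same signal would show more. To take account of this, each summit was divided by the lowest background of its list, taken as the genome-wide level. On this scale the medians were 35.1 in THP-1 and 11.3 in M2. The ratio of M2 to THP-1 had a median of 0.356 (interquartile range 0.234 to 0.511) and was below 1 in 437 of 456 pairs (95.8%, interval 93.6 to 97.5). In 1487 pairs of the wide peaks at least 50% covered the median ratio was 0.878 (0.597 to 1.22), and 60.6% were below 1. Over all 14978 such pairs of the THP-1 list, of any width, it was 0.940 (0.649 to 1.38), and 54.5% were below 1. The ratio was under 0.5 in 73.5% of member pairs, in 15.8% of covered pairs and in 13.5% of all pairs. In 19 member pairs the M2 summit was the higher on this scale.

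The paired summits lay close together. Their median distance was 105 bp in members and 95 bp in the covered pairs, and 69.1% and 66.2% were within 200 bp. The median width in these pairs was 2067 bp in THP-1 and 601 bp in M2 for members, against 1940 and 2105 bp in the covered pairs. In most of these pairs the M2 peak thus lay near the THP-1 summit and was lower, while its smaller width follows from the coverage limit. The lower height is not separate from that limit, since strength went with width among M2 peaks. M2 peaks inside a member had a median width of 513 bp and a median fold enrichment of 4.64. Those on the covered wide peaks had 2093.5 bp and 7.89. How much of the lower M2 height follows from the choice of members was not tested. The other 479 members, 281 of them without any M2 peak, are not described by the values of these pairs. Whether the lower M2 signal narrowed the called peak was not tested. The recovered local background was also lower on the M2 side. Divided by the lowest value of the list, its median was 5.02 in THP-1 and 1.58 in M2 at member pairs, and 7.29 and 3.61 at covered pairs. The median ratio of M2 to THP-1 background was 0.372 at member pairs and 0.448 at covered pairs. Over all pairs of the THP-1 list it was 0.471, so a lower M2 background was not particular to members.

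**Figure D3:**
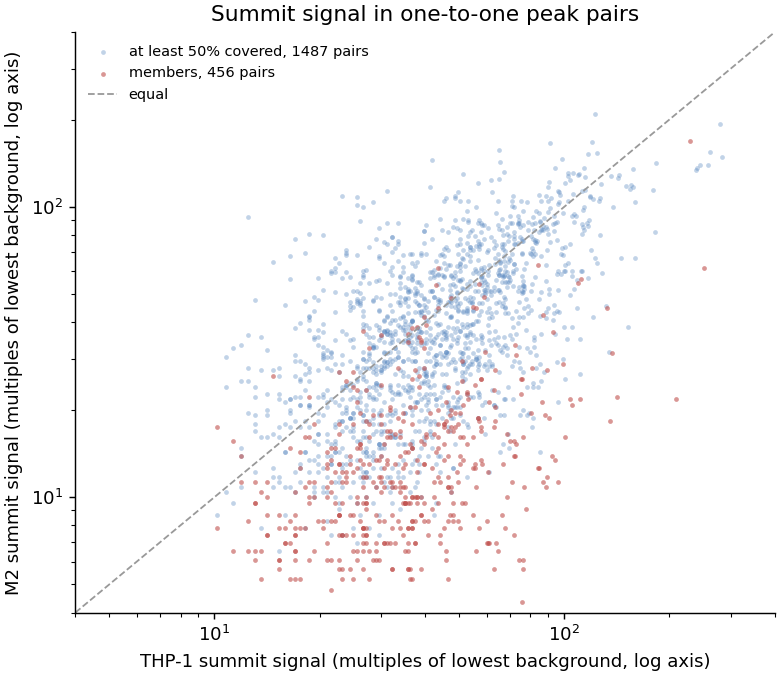
Recovered fragments over the summit of paired peaks, THP-1 on the x axis and M2 on the y axis, each in multiples of the lowest background of its list, on log axes; each point is a pair, red for 456 member pairs and blue for 1487 pairs of wide peaks at least 50% covered, and the dashed line marks equal signal. In 437 of the member pairs the point lies below the line.

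Within the THP-1 list the members were not weak peaks by fold enrichment. Their median fold enrichment was 5.98 (interquartile range 4.51 to 8.00) against 4.96 (3.47 to 6.93) in the wide peaks at least 50% covered and 3.67 over all THP-1 peaks. It was above 10 in 115 members (11.8%, interval 9.88 to 14.0) and in 7.13% (6.20 to 8.16) of the covered peaks. The order held in each of 5 bands of width. Among peaks of 1500 to 2000 bp the medians were 5.64 in members and 4.64 in covered peaks, and among those of 4000 bp or more 7.30 and 6.05. By fragments the order was the opposite, with a median of 56 over the summit of members and 78 over that of covered peaks. The median -log10 q was 22.9 and 25.4. The higher fold goes with a lower recovered background, 4.61 times the lowest of the list at members and 8.07 times at covered peaks. The share of wide peaks that were members fell along this background, from 42.6% (36.7 to 48.7) where it was 1 to 2 times the lowest to 14.8% (13.1 to 16.6) where it was 8 times or more. Fold and background come from the same 2 columns and are not separate evidence. The part of the background in which peaks became members was not tested.

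The members with the highest fold enrichment are given here as single sites. The first lay on chromosome 6 at 163253004 to 163258016, a peak of 5013 bp with a fold enrichment of 27.3 and 135 fragments over its summit. M2 cells had there 1 peak of 399 bp, 163254409 to 163254807, which held the THP-1 summit, with a fold enrichment of 4.35 and 14 fragments. The second, on chromosome 2 at 100443036 to 100445428, had a fold of 21.5 and 108 fragments, and its M2 peak of 936 bp had a fold of 4.93 and 16 fragments. On chromosome 1 at 206260363 to 206262992 the fold was 19.7 with 101 fragments, and a 378 bp M2 peak at the summit had 18 fragments. In each of these the M2 peak lay below the lower quartile of its list, 23 fragments. The sites were picked for high THP-1 fold among peaks chosen for low M2 coverage. A strong THP-1 peak beside a weak M2 peak is thus not separate from that choice.

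The others varied more in their M2 peaks. The member on chromosome 6 at 112243308 to 112245204 (fold 18.2, 91 fragments) held a pair of M2 peaks of 329 and 437 bp, and that on chromosome 3 at 145767315 to 145772259 (fold 17.8, 77 fragments) held a 451 bp M2 peak that missed the summit. On chromosome 9 at 123251902 to 123255312 the fold was 17.6 with 112 fragments, and the M2 peak of 1451 bp had a fold of 8.49 and 47 fragments. The member on chromosome 5 at 163390510 to 163392282 (fold 17.1, 51 fragments) was the only one of the 10 without M2 overlap, with the nearest M2 peak 19146 bp away. On chromosome 8 at 130678898 to 130684499 an M2 peak of 2315 bp with a fold of 12.5 and 64 fragments faced a THP-1 peak of 5602 bp with a fold of 16.7 and 143 fragments. The last 2 were on chromosome 8 at 104776297 to 104780611 (fold 16.0) and on chromosome 17 at 64843408 to 64850644 (fold 16.0), covered by 29.2% and 28.5%. In 8 of the 10 an M2 peak held the THP-1 summit.

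The widest members were of different kinds. The widest, on chromosome 1 at 236114621 to 236124100, spanned 9480 bp with 133 fragments over its summit, and 4 separate M2 peaks of 476 to 1531 bp covered 44.3% of it. On chromosome 6 at 88757780 to 88766149 a peak of 8370 bp had 170 fragments at its summit but a fold of only 3.21, and a single M2 peak of 407 bp with 26 fragments covered 4.86%. A peak of 7921 bp on chromosome 8 at 100820457 to 100828377 held 1 M2 peak of 2671 bp with 85 fragments. On chromosome 15 at 50392357 to 50399791 the case was another, since the M2 peak of 9659 bp was wider than the 7435 bp THP-1 peak and reached over its right edge only, covering 24.1%. There the M2 summit had 140 fragments and the THP-1 summit 97, without scaling to the lowest background of each list. The fifth belongs to the chromosome 1 cluster described further on.

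Members without any M2 overlap were narrower and had fewer fragments than overlapped members. The 281 had a median width of 1870 bp and 41 fragments, the 690 had 2140 bp and 63 fragments, and the median fold enrichment was 6.13 and 5.91. The 174 wide peaks far from M2 peaks had 38 fragments and a fold of 6.23. M2 peaks were often close by. The median gap was 5222 bp, 39 of the 281 (13.9%, interval 10.1 to 18.5) lay less than 1000 bp from an M2 peak and 136 (48.4%) less than 5000 bp. In 95 (33.8%, interval 28.3 to 39.7) there were M2 peaks within 20000 bp on each side. The widest of them lay on chromosome 17 at 55633412 to 55638638, with 170 fragments over its summit and the nearest M2 peak 13490 bp away. The next were on chromosome 1 at 246740068 to 246744965 (4898 bp, gap 2624 bp) and chromosome 2 at 89161093 to 89165370 (4278 bp, gap 2980 bp, only 30 fragments). On chromosome 5, the peaks at 71566177 to 71570336 and 175675623 to 175679715 were 4160 and 4093 bp wide, with 89 and 103 fragments and gaps of 7068 and 641 bp. The last has an M2 peak almost at its edge and none inside.

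M2 peaks also covered less sequence around members than around the wide peaks at least 50% covered. In the 20000 bp on either side, M2 peaks covered 0.827 times as much sequence as THP-1 peaks around members and 1.55 times as much around the wide peaks at least 50% covered. THP-1 peaks covered alike amounts around the 2 kinds, with medians of 2219 and 2202.5 bp, while M2 peaks covered 1905 and 4079.5 bp. M2 peaks covered more than THP-1 peaks around 40.8% (37.7 to 43.9) of members and around 75.5% (73.9 to 77.1) of covered peaks. The nearest other THP-1 peak, where it lay within 20000 bp, was itself less than 50% covered for 489 of 820 members (59.6%, interval 56.2 to 63.0) and for 561 of 2294 covered peaks (24.5%, 22.7 to 26.3). The covered lengths in the flanks are not free of the rule. An M2 peak that reaches over an edge runs into the flank. Each member without M2 overlap also had to have an M2 peak within 20000 bp. Flanks of neighbouring members overlap, so these peaks are not independent of each other.

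Members were found on all 23 chromosomes examined, in proportions mostly close to those of wide peaks. Chromosome 1 held the most, 109 of 505 wide peaks (21.6%, interval 18.1 to 25.4), and chromosome 21 the fewest, 10 of 57. The share was highest on the X chromosome, 27 of 68 (39.7%, interval 28.0 to 52.3), followed by chromosome 7 with 54 of 168 (32.1%, 25.2 to 39.8). The intervals of these 2 lay above the overall 25%, that of chromosome 7 only just, and those of the other 21 held it. The 23 intervals were each read alone, without allowance for their number. The lowest shares were 15.7% (8.61 to 25.3) on chromosome 19 and 17.5% (8.75 to 29.9) on chromosome 21. In the exchanged comparison the share of wide M2 peaks was 50.6% on the X chromosome and 46.0% on chromosome 7, beside 48.1% overall. Peak lists hold no measure of copy number, so its part in these shares was not tested.

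**Figure D4:**
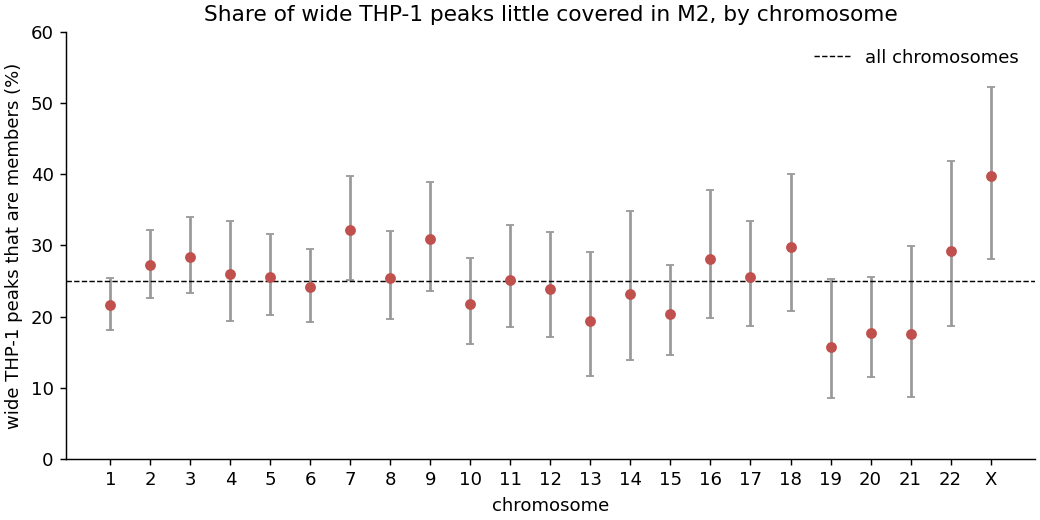
Share of wide THP-1 peaks that are members (y axis, %) on each chromosome (x axis); points are shares, bars exact 95% binomial intervals, and the dashed line is the share over all chromosomes, 25%. The X chromosome is highest at 39.7% and chromosome 19 lowest at 15.7%.

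How members lay along the chromosome depended on the measure. Among wide peaks with an M2 peak near, the next such peak within 12.5 kb was a member after 111 of 219 members (50.7%, interval 43.9 to 57.5) and after 94 of 572 covered peaks (16.4%, 13.5 to 19.7). Members within 12.5 kb of each other were joined into clusters. This gave 95 clusters with 217 members (22.3% of all, interval 19.8 to 25.1), and 754 members stood alone. By the same measure 29.9% (28.2 to 31.6) of the wide peaks at least 50% covered, a set of 2734, had another of their kind nearby, and 34.0% (32.5 to 35.5) of all wide peaks did. This count moves with the size of the set, and the difference was not tested. There were 78 clusters of 2 members, 9 of 3, 7 of 4 and 1 of 6. In the 17 clusters of 3 or more, which lay on 10 chromosomes, M2 peaks covered 4.86% to 40.3% as much sequence as THP-1 peaks, with a median of 20.8%. The choice of members keeps this figure low. It includes the other THP-1 peaks inside the bounds, but members made up most of the THP-1 length in each of the 17.

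The clusters named next are the one of 6 members and, of the 7 with 4, the 4 whose members were longest in sum. The cluster with the most members lay on chromosome 1 at 44227899 to 44267654. Its 6 members were 1800 to 7277 bp wide and together 25.4 kb, of which M2 peaks covered 26.3%. The outermost on the left, 44227899 to 44233217, had the highest fold of the cluster, 10.5, with 178 fragments over its summit, and an M2 peak of 485 bp with 37 fragments lay there. The next, 44233483 to 44236769, and the fifth, 44256991 to 44258790, had no M2 overlap and 68 and 78 fragments. The third, 44238384 to 44243352, was broken into 3 M2 peaks of 407, 453 and 1332 bp. The fourth, 44244556 to 44247315, had 274 fragments and an M2 peak of 2586 bp with 112 fragments that reached over its right edge. The last, 44260378 to 44267654, was the fifth widest of all members, with 235 fragments, and held 5 M2 peaks of 309 to 890 bp with 27 to 51 fragments each. The cluster held 31.4 kb in 7 THP-1 peaks and 10.3 kb in 11 M2 peaks, so M2 cells had more peaks there but shorter ones.

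A cluster on chromosome 8 at 130667208 to 130694207 held 4 members, all with M2 overlap. Its member of highest fold, described above, held a 2315 bp M2 peak, while the member at 130690037 to 130694207 had 150 fragments in THP-1 and a 395 bp M2 peak with 29. A further cluster of 3 members lay to its left at 130592601 to 130607589, with M2 peaks on the summit of each. The cluster on chromosome 10 at 7511706 to 7532959 likewise had an M2 peak on the summit of each of its 4 members. The THP-1 summits there had 35 to 78 fragments, and the M2 peaks on the 4 members 18 to 28 fragments each. On chromosome 9 at 160112 to 176118, 2 of 4 members had no M2 overlap, and the one at 172261 to 176118 was 3858 bp wide with an M2 peak 280 bp away. The member at 170193 to 172079 goes the other way in height. Its 619 bp M2 peak had 86 fragments against 47 in THP-1, without scaling to the lowest background of each list.

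The other chromosome 8 cluster, at 86812435 to 86848273, had the lowest ratio of M2 to THP-1 peak length of these 5. It held 11.6 kb of THP-1 and 1.52 kb of M2 peaks, so the M2 list covered 13.1% as much. Counted over the members alone, the chromosome 9 cluster was covered less, 15.3% against 16.5%. The members there had 183, 158, 160 and 40 fragments over their summits in THP-1. The second, at 86824913 to 86827356, had no M2 overlap, with the nearest M2 peak 10220 bp away, and the M2 peaks on the others were 457, 583 and 483 bp wide with 50, 43 and 20 fragments. With members joined over 50000 bp this cluster grew to 6 members over 99.6 kb, with 25.4 kb in 21 THP-1 peaks and 3.18 kb in 7 M2 peaks. Of the 17 clusters, the lowest ratio was on chromosome 6 at 39180250 to 39193426, where 3 members with 7.37 kb met 1 M2 peak of 0.377 kb.

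**Figure D5:**
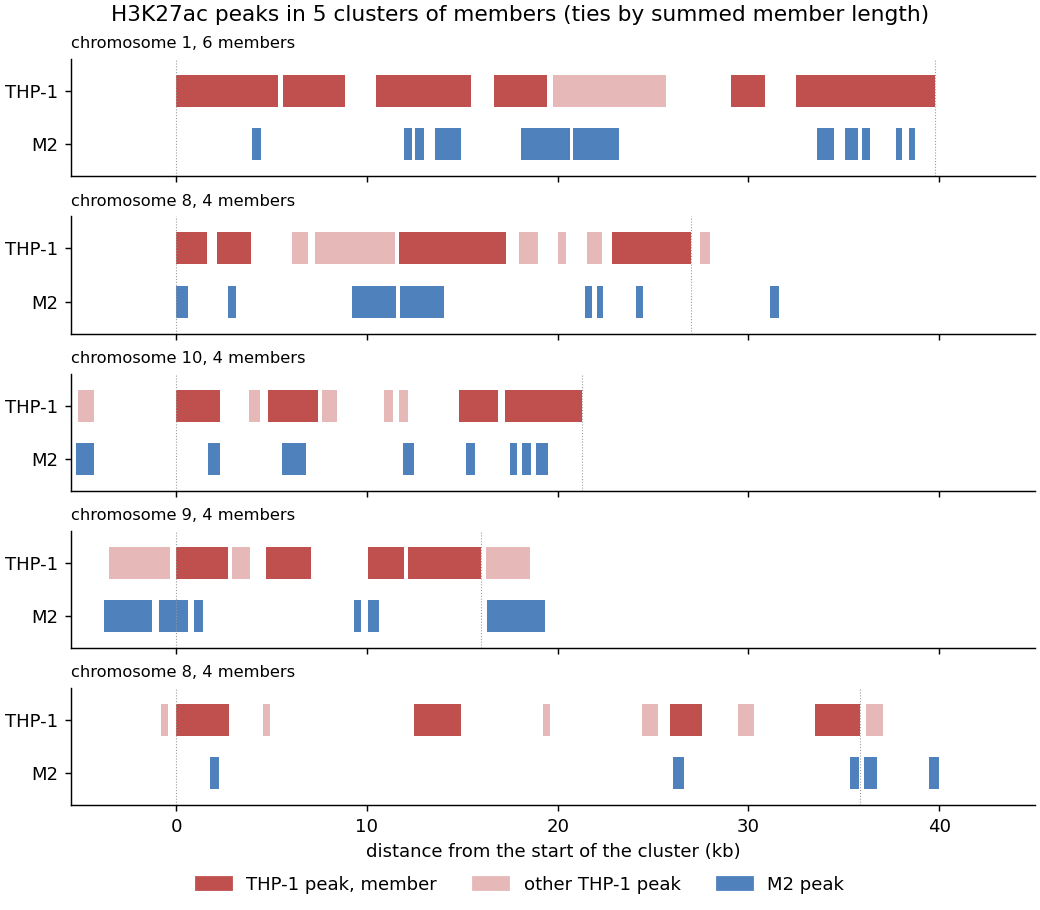
Peaks of the cluster of 6 members and of the 4 clusters of 4 members with the longest members in sum, one panel each, along the distance from the start of the cluster (x axis, kb); the upper row holds THP-1 peaks, members in dark red and others in light red, the lower row M2 peaks in blue, and dotted lines mark the bounds of the cluster. The M2 peaks are shorter than the members they overlap, and 5 of the 22 members have none.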

How the data were processed

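THP-1 and M2 cells were profiled by H3K27ac ChIP-seq, 1 library each. The submitters' processing notes name Bowtie2, MACS2 version 2.1.0 and hg19, and the sources used here give no settings, control or pooling. The authors' deposited columns, in narrowPeak order, are fold enrichment (a ratio over local background) and the p-value and q-value as -log10. The score column deposited by the authors restates the q and was not used. Lists were matched to samples by file name and title.

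Coverage is the length of a peak inside peaks of the other list, and gap the bases between peaks. Clusters join members within 12500 bp. Shares carry exact (Clopper-Pearson) 95% intervals. Fragments were solved from fold enrichment, (pileup + 1)/(background + 1), and the Poisson p, keeping pileups whole within 0.02. The M2 pileup came out scaled by 0.842, and a single solution was found for 96.2% of THP-1 and 96.8% of M2 peaks. These are inferences, and peaks without a single solution were left out of fragment values. Overlap and recovery were tested on simulated peaks. Tools were Python 3.11.15, pandas 2.3.3, NumPy 2.4.6 and SciPy 1.17.1.

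Named regions are the 10 members of highest fold, the 5 widest, the 5 widest without overlap, the 5 clusters with most members (ties by summed member length), and peaks beside the limits. The remaining named clusters, peaks left out by width and distance, and the 50000 bp joining were picked after values were seen. Members and lists were chosen with earlier results of these data known. The planned gene and marker lookups were not made, because no hg19 annotation was used here.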

Additional observations from a re-analysis of the deposited data

How the results depend on the processing

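No paired analysis was possible because each cell type had 1 library. Peaks of a library are not replicates, and the depth over weak M2 peaks limits what can be called uncovered. With a width of at least 1000 bp there were 2070 members, 38.6% without M2 overlap, 49.9% with the summit in an M2 peak, 26.6% near another member, a median fold of 5.21 and 9949 peaks in the exchanged comparison. With 2000 bp these were 513, 21.8%, 65.7%, 19.3%, 6.29 and 3541, and members were 28.0% of wide peaks near an M2 peak, where the main share was 26.2%. With coverage under 25% there were 511 members, 13.8% of such peaks, 55.0% without overlap, 31.5% with the summit in M2, 16.0% near another, and 3369 in the exchanged comparison. With a gap under 5000 bp the shares of members, of no overlap and of summits were 23.2%, 16.5% and 69.5%, and with no limit 29.5%, 39.7% and 50.1%. With -log10 q of at least 10 in both lists they were 28.1%, 51.8% and 41.2%, with a median fold of 6.25, and with this limit in M2 only 28.6%, 53.4% and 39.6%. The shares of no overlap and of summits in M2 therefore depend on weak M2 peaks. The share near another member was 15.8% when joined within 5000 bp and 29.7% within 50000 bp. The limits themselves fix which peaks enter, and beyond that the cause was not tested. Of 58 alternative values, 24 stayed within the interval of the main value or, for numbers of peaks, within 1.5 times it. They include each value with peaks of the covering list joined within 500 bp. The covering list was M2 for the members and THP-1 in the exchanged comparison.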
